A study of Homo sapiens with 5 samples.

Results

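The cytosolic ribosomal protein genes of human leukaemia cells were described in cells taken from the brain and from the spleen of transplanted mice. Members were protein-coding genes whose symbol begins with RPL or RPS and a number, with RPLP0, RPLP1, RPLP2 and RPSA. The rule left out 10 RPS6K genes, which encode kinases, and 8 like-genes, paralogues whose symbols end in L or L1. It took 83 of 65217 genes: 77 genes that each encode 1 ribosomal protein (46 of the large subunit and 31 of the small subunit), 3 readthrough genes, RPS19BP1, which encodes a binding partner of a ribosomal protein, and 2 Y-linked genes that are not reported. All 77 ribosomal protein genes were tested, and the counts below are over these 77. The like-genes are described apart.

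The cells were REH, an established precursor B cell acute lymphoblastic leukaemia line with the ETV6-RUNX1 (TEL-AML1) fusion, grown in NSG mice (NOD.Cg-PrkdcscidIl2rgtm1Wjl/SzJ), which lack T, B and natural killer cells, aged 6 to 10 weeks. Both groups came from these transplants and no agent was given: 3 libraries were from cells of the brain leptomeninges and 2 from cells of the spleen. Each library was 1 pool of RNA from 5 mice, and a replicate number marks 1 of 3 occasions. Spleen replicate 3 failed the submitters' quality control. The spread between libraries therefore covers pools and occasions, not single mice, and 1 line stands for the disease.

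Totals lay between 38387991 and 48764202 estimated counts on human genes. Of 10 precursor B cell markers 9 were above 1 CPM (counts scaled to library size) in every library, and VPREB1 was listed at 0. T cell markers summed to at most 0.205 CPM and erythroid markers to at most 0.114 CPM. Myeloid markers summed to 2.73 to 5.53 CPM in brain and 3.30 to 3.97 CPM in spleen, and 1 of the 4, CSF1R, was above 1 CPM in every library. Mouse transcripts held 5.70%, 2.58% and 2.64% of all estimated counts in brain replicates 1 to 3 and 6.33% and 8.87% in spleen replicates 1 and 2.

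Ribosomal proteins are the structural proteins of the cytosolic ribosome, which reads mRNA into protein. They are made in near-equal numbers, since each ribosome holds 1 copy of most of them, and free ribosomal proteins are degraded. Their mRNAs are among the most abundant of a dividing cell. Most start at a C followed by a run of pyrimidines, the 5′ terminal oligopyrimidine (TOP) tract, through which mTORC1 signalling and the RNA-binding protein LARP1 control their translation. A change of mRNA level is thus only 1 part of how ribosomal protein output is set, and translation was not measured here.

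The start sites are shown because the tract is what most of these genes share and what the choice of members did not use. The sequences are from RefSeq (GRCh38.p14), from 10 bases before the listed start to 20 bases from it on the coding strand, with the tract in capitals.
RPL13A, chr19:49487598-49487627, plus strand: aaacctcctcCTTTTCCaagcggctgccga
RPS3, chr11:75399508-75399537, plus strand: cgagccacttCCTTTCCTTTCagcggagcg
RPL35, chr9:124861938-124861967, minus strand: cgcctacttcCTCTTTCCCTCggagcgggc
RPS24, chr10:78033853-78033882, plus strand: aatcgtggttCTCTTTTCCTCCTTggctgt
RPL39, chrX:119791611-119791640, minus strand: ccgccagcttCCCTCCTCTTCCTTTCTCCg
RPS27L, a like-gene, chr15:63157458-63157487, minus strand, no tract: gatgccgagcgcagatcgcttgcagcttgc
A tract was counted where a listed start was a C followed by at least 4 further pyrimidines on the coding strand. It was found in 46 of 62 ribosomal protein genes with a RefSeq promoter entry (74.2%), against 924 of 15283 other protein-coding genes (6.05%), and in 1 of 6 like-genes with an entry. Tracts were 5 to 19 bases long, with a median of 8. The motif CCGGAAG, searched on both strands of the 300 bases around the start, was in 22 of the 62 (35.5%) and in 16.6% of the other protein-coding genes. The median log2 ratio of brain over spleen was 0.15 for the 16 genes without a tract at a listed start and 0.18 for the 46 with one.

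The mRNAs of the ribosomal proteins took 6.68%, 6.68% and 7.48% of human gene counts in brain replicates 1 to 3 and 6.996% and 5.17% in spleen replicates 1 and 2. The spleen libraries lay on both sides of brain replicates 1 and 2. Brain averaged 6.95% ± 0.464 (SD, n = 3) and spleen 6.08% ± 1.29 (SD, n = 2), and the exact two-sided permutation test over libraries gave p = 0.4, where 0.1 is the smallest possible. Counting error was far smaller than this spread: the widest exact 95% interval of a share spanned 0.0158 percentage points. The ratio of large to small subunit counts was 1.40, 1.46 and 1.44 in brain and 1.35 and 1.44 in spleen. The share of each subunit was highest in brain replicate 3 and lowest in spleen replicate 2. Between brain and spleen, the exact permutation test of the ratio gave p = 0.5, where 0.1 is the smallest possible.

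The larger contrast was between libraries of 1 group. In spleen replicate 2, 74 of 77 genes were below spleen replicate 1, with a median log2 ratio of -0.57, while the median over 20302 genes was -0.01. Spleen replicate 2 was the lowest of all libraries for 68 genes, which was not counted over all genes. Brain replicate 3 was the highest of the brain libraries for 77 of 77 genes. Its median log2 ratio was 0.22 to brain replicate 1 and 0.25 to brain replicate 2. Over all genes tested these medians were -0.01 and -0.001, with 10012 of 20312 and 10112 of 20323 genes higher in brain replicate 3. Brain replicates 1 and 2 differed by a median of -0.01, with 36 genes higher and 41 lower in replicate 2. These libraries also differed in mouse share, given above, whose part in the result was not tested.

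**Figure D1:**
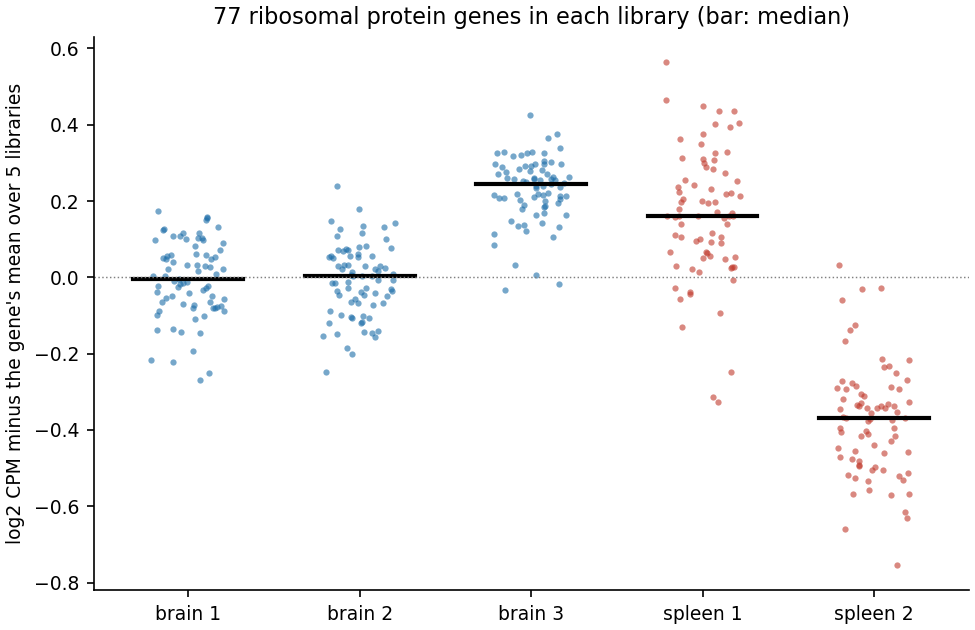
Points are the 77 ribosomal protein genes, each as log2 CPM minus that gene's mean over the 5 libraries (y axis), by library (x axis), and black bars are medians. The medians are 0.00, 0.00 and 0.24 in brain replicates 1 to 3, 0.16 in spleen replicate 1 and -0.37 in spleen replicate 2.

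The spread within spleen was widest for RPL9, a large subunit protein, at 1177 and 511 CPM in the spleen replicates and 927, 873 and 979.9 CPM in brain. The brain libraries lay between the spleen libraries for RPL9, as they did for 25 of the 77 genes, a count not made over all genes. RPL28, RPL14 and RPL23A, all of the large subunit, were the 3 genes not below in spleen replicate 2, and they were picked out after their values were seen. RPL28 stood at 455 and 584 CPM in spleen and 491, 674 and 689 CPM in brain.

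Ribosomal protein transcripts are short, and shorter transcripts of other genes moved between the spleen libraries as well. This description was chosen after the data were seen, over genes with a mean of at least 8 CPM. The ribosomal protein transcripts had a median length of 634 bases, against 1912 for all genes tested, without the 8 CPM cut. Between 500 and 750 bases, 248 other genes had a median log2 ratio of spleen replicate 2 to replicate 1 of -0.32, and 41 ribosomal protein genes had -0.54. Above 5000 bases the median of 1013 other genes was 0.08. Between the sites the order was the opposite: in the same length class the median log2 ratio of brain over spleen was -0.30 for other genes and 0.20 for ribosomal protein genes. How far length accounts for either difference was not tested beyond a fit with a length trend as an offset, which called 4 ribosomal protein genes higher and 0 lower in brain, against 5.63% and 3.89% of all genes.

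**Figure D2:**
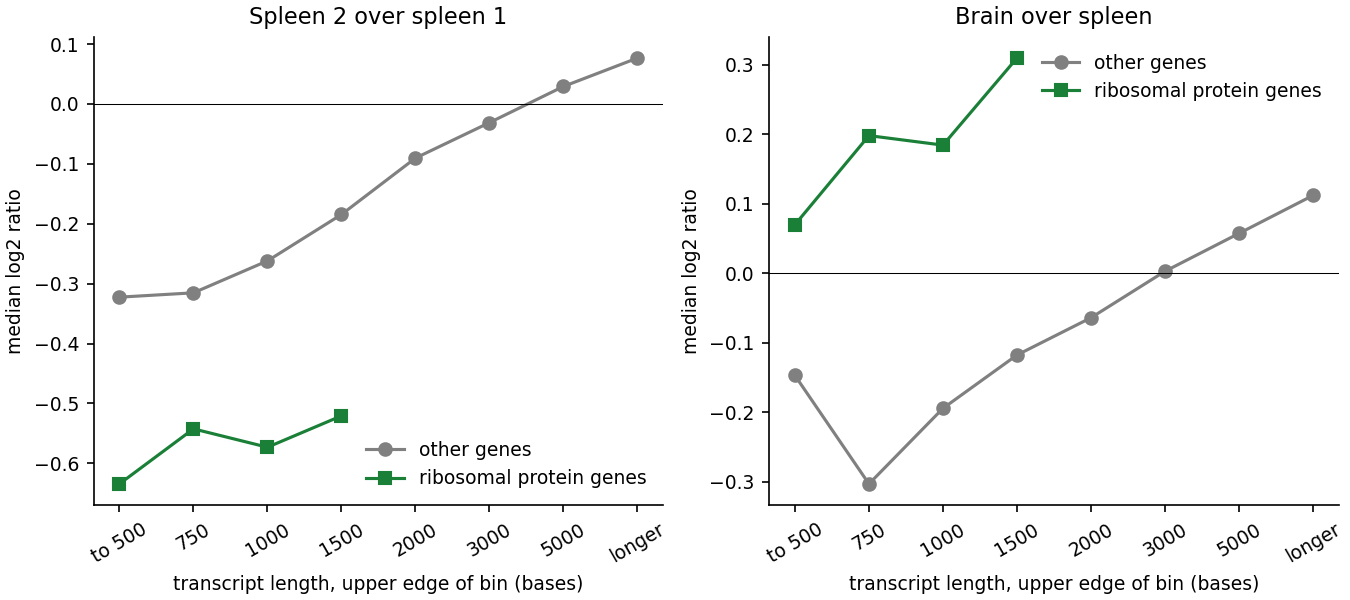
Median log2 ratio (y axis) by transcript length class in bases (x axis) for ribosomal protein genes (green squares; 13, 41, 12 and 6 genes in the first 4 classes) and all other genes (grey circles), for spleen replicate 2 over 1 (left) and brain over spleen (right). In the class of 500 to 750 bases the ribosomal protein genes lie at -0.54 (left) and 0.20 (right), and the other genes at -0.32 and -0.30.

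Between brain and spleen, 1 of 77 ribosomal protein genes was higher in brain and 0 were lower by edgeR's quasi-likelihood test, at an adjusted p under 0.05. Among all 20419 genes tested 6.01% were higher and 3.5% lower. At an unadjusted p under 0.05, 11 were higher and 1 lower, against 14.2% and 11.3% of all genes, and the DESeq2 Wald test called 4 higher and 0 lower, against 8.94% and 7.84%. With no filter on low counts 9 were higher and 1 lower, against 4.74% and 3.46% of 38611 genes. That base takes in genes of low counts that the main fit left out. Log2 fold changes were above 0 for 65 genes and below 0 for 12, with a median of 0.16, against 0.01 over all genes tested. The median was 0.20 for the large subunit and 0.14 for the small subunit, and the whole range was -0.40 to 0.50.

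The direction of this small shift rested on the spleen libraries. Without spleen replicate 1 the median was 0.42 and 20 genes were higher and 0 lower, where 3.46% of all genes were higher and 1.36% lower. Without spleen replicate 2 the median was -0.07 and 0 genes were higher and 3 lower (RPS7, RPL8 and RPL35), where 4.07% of all genes were higher and 3.87% lower. Libraries were also paired by replicate number, which by the labels marks the occasion. Brain replicate 1 over spleen replicate 1 had a median log2 ratio of -0.16, with 60 of 77 genes lower in brain. Over all genes tested the median was 0.03, with 9618 of 20297 genes lower. Brain replicate 2 over spleen replicate 2 had a median of 0.37, with 73 of 77 genes higher in brain. Over all genes tested it was 0.01, with 10403 of 20320 genes higher. With the occasion as a block 0 genes passed in either direction, against 6.04% higher and 3.97% lower of all genes. The deposited spleen columns carry other numbers than the labels. The pairing, on which each fit with this block rests, is therefore not certain. Brain replicate 3 has no spleen library in its block. Each such fit thus compares the sites in replicates 1 and 2 only, with 1 residual degree of freedom.

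**Figure D3:**
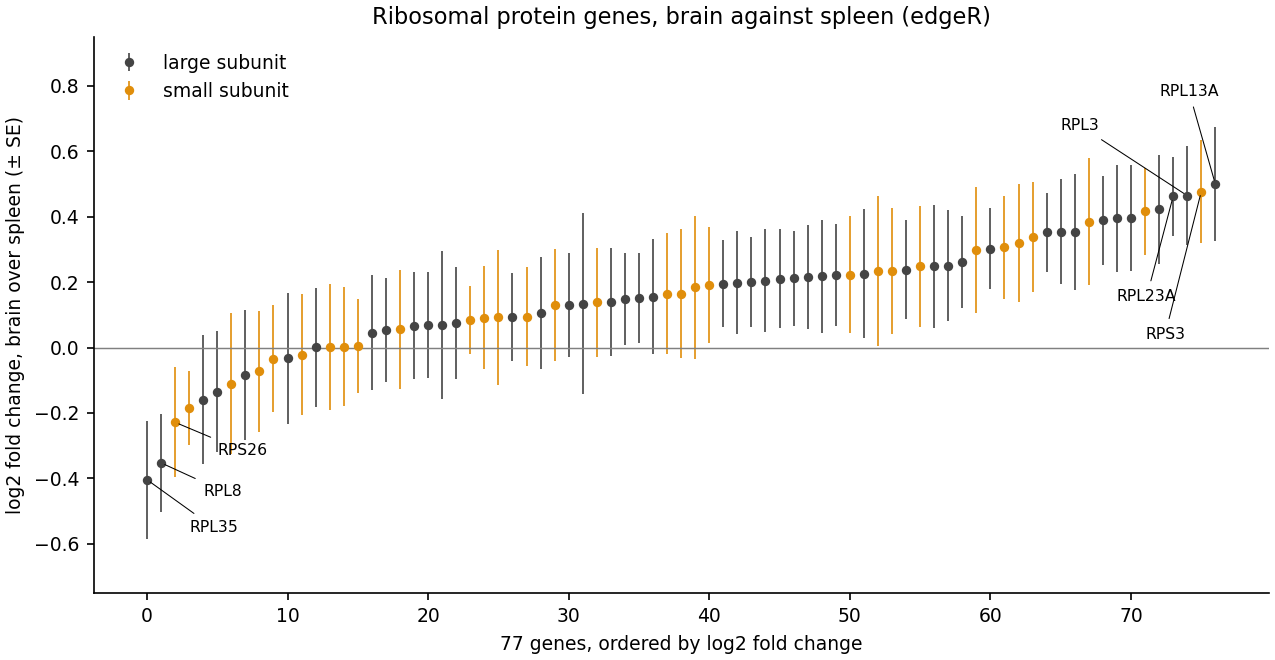
Log2 fold change of brain over spleen with its SE (y axis) for the 77 ribosomal protein genes in rising order (x axis), large subunit in grey and small subunit in orange. Values run from -0.40 (RPL35) to 0.50 (RPL13A), and 65 of 77 lie above 0.

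RPL23A, a large subunit protein near the exit of the peptide tunnel (ENSG00000198242, GRCh38 chromosome 17, 28719985 to 28724359), was the gene that passed. It stood at 478, 475 and 583 CPM in brain and 362 and 382 CPM in spleen. Every brain library was above both spleen libraries, and the spleen libraries were close to each other. The log2 fold change was 0.46 (SE 0.121, edgeR adjusted p = 0.0464). The call was lost with the occasion as a block (edgeR adjusted p = 0.0808) and whichever 1 library was left out (edgeR adjusted p from 0.0791 to 0.15). Reads of this gene are hard to place: the processed pseudogene RPL23AP42 was given 14379, 19114 and 19292 counts in brain and 13289 and 13716 in spleen (log2 0.46). Summing RPL23A with its pseudogenes gave log2 0.43 (edgeR adjusted p = 0.0511).

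The brain libraries were all above the spleen libraries for 11 genes and all below for 0, where 23.3% and 19.5% of all genes tested did so. RPL13A, which also serves in a complex that silences inflammatory mRNAs, had the highest fold change. It stood at 1850.2, 1932 and 2159.8 CPM in brain and 1699 and 1102 CPM in spleen (log2 0.50, SE 0.174, edgeR adjusted p = 0.11). Its log2 fold change was 0.84 without spleen replicate 1 (edgeR adjusted p = 0.00712) and 0.22 without spleen replicate 2. RPS3, a small subunit protein at the mRNA entry channel, stood at 1055, 1135 and 1395 CPM in brain and 974 and 744 CPM in spleen (edgeR adjusted p = 0.0958). RPL3, which lies near the peptidyl transferase centre, stood at 1703, 1750.3 and 1972 CPM in brain and 1532 and 1090.2 CPM in spleen (edgeR adjusted p = 0.0922). For all 3 the brain libraries lay above both spleen libraries, with spleen replicate 1 nearer to brain. RPS4X, the X-linked small subunit gene, followed the same order at 823, 828 and 1017 CPM in brain and 721 and 612 CPM in spleen (edgeR adjusted p = 0.085).

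At the other end were RPL35, RPL8 and RPS26. RPL35, a large subunit protein near the tunnel exit, stood at 444, 475 and 516 CPM in brain and 782 and 485 CPM in spleen (log2 -0.40, SE 0.18, edgeR adjusted p = 0.2). Only spleen replicate 1 was high, and without it the log2 fold change was -0.03. RPL8, a large subunit protein close to the catalytic centre, stood at 773, 843 and 937 CPM in brain and 1260.5 and 913 CPM in spleen. RPS26, a small subunit protein at the mRNA exit, stood at 187, 186 and 235 CPM in brain and 281 and 195 CPM in spleen. The groups overlapped for all 3.

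Scaled for transcript length, as TPM, the most abundant members were RPL41, RPS19, RPL13 and RPS2. RPL41, the smallest ribosomal protein, stood at 5155, 5866 and 6623 TPM in brain and 6364 and 5066 TPM in spleen. RPS19, mutated in Diamond-Blackfan anaemia, averaged 4491 TPM, RPL13 4408 TPM and RPS2 4263 TPM. RPS2, a small subunit protein, stood at 3352, 4334 and 4383 TPM in brain and 4546 and 4702 TPM in spleen. RPL41 was the highest of these genes in each of the 5 libraries. The order of RPS19, RPL13 and RPS2 changed between libraries and is not settled. For 5 members, RPS27 and RPL26 among them, no TPM is given, since under 90% of their counts lay on transcripts matched to the annotation. Of the other members named by rule, RPLP0, the stalk protein, RPSA, RPS6, the target of S6 kinase, RPL10 and RPL7 had log2 fold changes of 0.05, -0.03, 0.16, 0.13 and 0.10. None of these 5 passed the test (edgeR adjusted p from 0.642 to 0.929).

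The 8 like-genes are paralogues of ribosomal protein genes, and 7 were tested: 0 were higher and 1 was lower in brain, against 6.01% and 3.5% of all genes. With the occasion as a block 1 was higher and 2 were lower, against 6.04% and 3.97% of all genes. The median log2 fold change of the like-genes was -0.35, and -0.14 when either spleen library was left out. The like-gene lower in the main fit was RPS27L (ENSG00000185088, GRCh38 chromosome 15, 63125872 to 63158021), a paralogue of RPS27. It stood at 20.8, 20.9 and 21.4 CPM in brain and 31.3 and 31.5 CPM in spleen. The 2 groups were each tight and did not overlap. The log2 fold change was -0.58 (SE 0.0961, edgeR adjusted p = 0.00928), and it ranged from -0.60 to -0.57 with 1 library left out. The call was lost without brain replicate 1 (edgeR adjusted p = 0.0509). RPS27 itself stood at 932, 889 and 1060.4 CPM in brain and 1019 and 614 CPM in spleen, which overlapped (edgeR adjusted p = 0.504). The log2 ratio of RPS27L to RPS27 in CPM, not scaled for length, averaged -5.51 ± 0.111 in the brain libraries (SD, n = 3) and -4.65 ± 0.524 in the spleen libraries (SD, n = 2).

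RPL22L1, a paralogue of the RNA-binding protein RPL22, went the other way. It stood at 162, 121 and 159 CPM in brain and 118 and 61.4 CPM in spleen (log2 0.72, SE 0.247, edgeR adjusted p = 0.107). It passed with the occasion as a block (edgeR adjusted p = 0.0209) and without spleen replicate 1, at log2 1.25, and its log2 fold change was 0.32 without spleen replicate 2. The groups did not overlap, but brain replicate 2 and spleen replicate 1 were close. In TPM, RPL22L1 was 66.3%, 51.6% and 53.5% of RPL22 in brain and 44.1% and 27.3% in spleen. RPL39L, a paralogue of the tunnel protein RPL39 best known from the testis, stood at 24.5, 22.4 and 27 CPM in brain and 50.1 and 28.4 CPM in spleen (log2 -0.67, edgeR adjusted p = 0.077). It passed with the occasion as a block (edgeR adjusted p = 0.0445), by the DESeq2 Wald test (adjusted p = 0.018) and without spleen replicate 2, at log2 -1.03; without spleen replicate 1 the value was -0.21. It was 1.98%, 1.87% and 1.74% of RPL39 in TPM in brain and 2.94% and 3.15% in spleen. The log2 ratio was lower in brain by a similar amount when either spleen library was left out, at -0.76 and -0.66.

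RPL26L1 stood at 27.9, 25.2 and 30.2 CPM in brain and 41.0 and 29.9 CPM in spleen, and its log2 ratio to RPL26 in CPM averaged -4.86 ± 0.0521 in the brain libraries (SD, n = 3) and -4.11 ± 0.0607 in the spleen libraries (SD, n = 2). The ratios of RPL36AL to RPL36A and of RPL7L1 to RPL7 overlapped between the sites. RPL3L, a paralogue of striated muscle, was at most 0.536 CPM, and RPL10L, a testis paralogue, had at most 2 counts in a library and was not tested. No ratio was tested, and reads that paralogues may share make each uncertain. RPS19BP1 and the 3 readthrough genes did not pass the test.

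**Figure D4:**
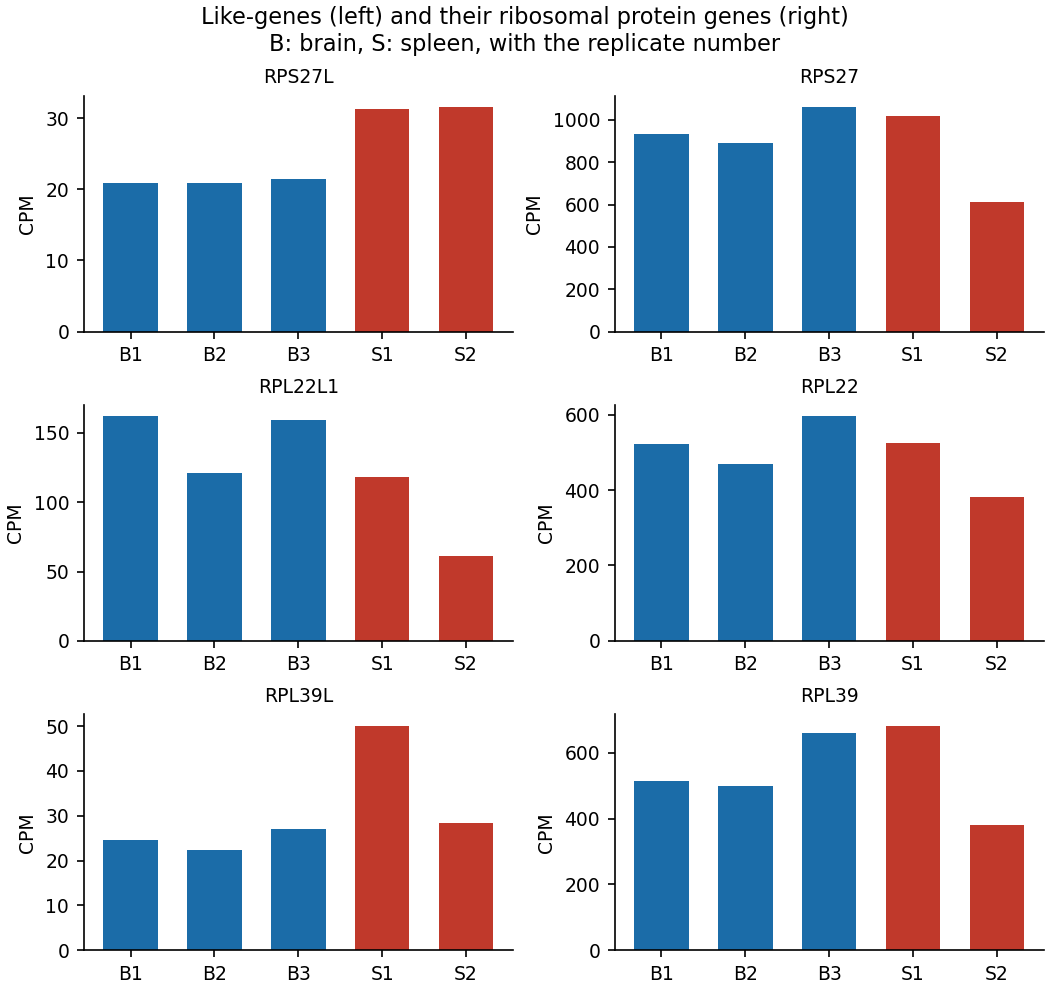
CPM (y axis, bars from 0) in each library (x axis; B brain in blue, S spleen in red, with the replicate number) for 3 like-genes and their ribosomal protein genes. RPS27L lies at 20.8 to 21.4 in brain and 31.3 to 31.5 in spleen, while RPS27 overlaps between the sites.

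The transcripts of 1 ribosomal protein gene were picked out after looking through the transcript shares of all members. RPS24, a small subunit protein, has an alternative exon of 3 bases, AAG, at chr10:78037439-78037441 (GRCh38, plus strand) near the end of its reading frame. The joined transcript sequences from GENCODE are shown with 12 bases on each side and the exon in capitals, since this is the only difference the transcripts show here.
RPS24 with the exon: gctggcaaaaagAAGtgagctggagat
RPS24 without the exon: gctggcaaaaagtgagctggagat
Of the TPM on transcripts that cross the site, 25.6%, 26.7% and 24.9% carried the exon in brain and 10.97% and 10.1% in spleen. The brain libraries lay close together and far above both spleen libraries, including spleen replicate 1, which was near brain in RPS24 level (961, 852 and 1052 CPM in brain, 901 and 610.2 CPM in spleen). The means were 25.7% ± 0.915 (SD, n = 3) and 10.5% ± 0.603 (n = 2). The gene was picked for this split, so the values are a description.

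The test of usage was likewise added after the data were seen. Over 61733 human transcripts, edgeR's test of usage within genes gave ENST00000360830, the main transcript with the exon, a log2 usage change of 1.26 in brain over spleen (adjusted p = 0.0168). Among all transcripts 0.293% were called, and among 626 transcripts of 72 ribosomal protein genes 5 were. The usage change ranged from 1.22 to 1.33 with 1 library left out. Brain replicate 3 is alone in its block, so a fit with the occasion as a block compares the sites without it. The call held without brain replicate 3 (edgeR adjusted p = 0.0139) and with the block (edgeR adjusted p = 0.00358). It was lost when brain replicate 1 or 2 or spleen replicate 1 or 2 was left out (edgeR adjusted p = 0.0629, 0.115, 0.108 and 0.159). The transcripts differ in few bases, and the number of reads that cross the site is unknown here.

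**Figure D5:**
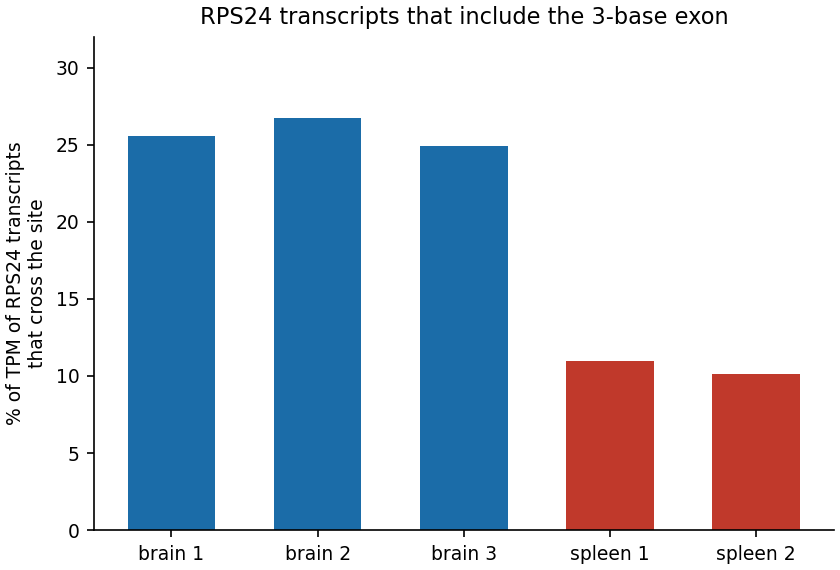
Percent of the TPM of RPS24 transcripts crossing the site that carries the 3-base exon (y axis, bars from 0) in each library (x axis), brain in blue and spleen in red. The 3 brain libraries lie between 24.9% and 26.7%, and the spleen libraries at 10.97% and 10.1%.

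Of the other 4 transcripts, 1 had a mean of at least 10 TPM, ENST00000479992 of RPL13A, a retained-intron form. It held 1.76%, 1.74% and 1.48% of the gene's TPM in brain and 6.65% and 2.73% in spleen (edgeR adjusted p = 0.0385). Spleen replicate 1 was the high library, and without it the log2 usage change went from -1.67 to -0.80 and the call was lost.

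Genes that work with the ribosome were counted in lists by the same edgeR fit. Of 16 translation factors and other proteins with TOP mRNAs, 6 were higher in brain and 0 lower, against 6.01% and 3.5% of all genes, with a median log2 fold change of 0.46. EIF3E, a subunit of initiation factor eIF3, stood at 493, 413 and 481 CPM in brain and 313 and 252 CPM in spleen (log2 0.71, SE 0.132, edgeR adjusted p = 0.0138). EIF3F and EIF3L, of the same complex, were higher as well (log2 0.59 and 0.61, edgeR adjusted p = 0.0171 and 0.0189). Leaving out brain replicate 1, 2 or 3 gave 1, 1 and 2 higher genes, leaving out spleen replicate 1 gave 10, and leaving out spleen replicate 2 gave 2, and the list's median was 0.29 to 0.63. Of all genes, 2.57%, 2.97% and 4.19% were higher without brain replicates 1, 2 and 3, and 3.46% and 4.07% without spleen replicates 1 and 2.

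Of 30 ribosome biogenesis factors, 0 were higher and 9 lower in brain, against 6.01% and 3.5% of all genes, with a median log2 fold change of -0.32. BOP1, needed for large subunit maturation, stood at 104, 113 and 103 CPM in brain and 173 and 147 CPM in spleen (log2 -0.58, SE 0.106, edgeR adjusted p = 0.013). NOP56, a core protein of box C/D ribonucleoproteins that guide rRNA methylation, stood at 256, 274 and 272 CPM in brain and 372 and 394 CPM in spleen (edgeR adjusted p = 0.0137). EBNA1BP2, another large subunit assembly factor, was lower by a similar factor (log2 -0.52, edgeR adjusted p = 0.0207). Leaving out brain replicate 1, 2 or 3 gave 0, 1 and 8 lower genes, and leaving out spleen replicate 1 or 2 gave 1 and 8. Of all genes, 0.728%, 1.25% and 2.27% were lower without brain replicates 1, 2 and 3, and 1.36% and 3.87% without spleen replicates 1 and 2. The median stayed between -0.34 and -0.28 in these fits.

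Of 19 genes of RNA polymerase I and its factors, 0 were higher and 1 was lower, against 6.01% and 3.5% of all genes. This was POLR2L, a subunit shared by the nuclear RNA polymerases, at 27.9, 33.2 and 42.7 CPM in brain and 57.0 and 57.0 CPM in spleen (edgeR adjusted p = 0.0264). Its call was lost without brain replicate 1, brain replicate 2 or spleen replicate 1, where 0 genes of the list passed. Of 16 genes that control TOP mRNA translation and growth, 2 were higher and 0 lower, against the same 6.01% and 3.5%. In 10 of 16 alternatives 1 gene of this list was lower, RPS6KB2, an S6 kinase gene named after its values were seen. DDIT4, an inhibitor of mTORC1 signalling, stood at 72.5, 93.7 and 68.1 CPM in brain and 19.4 and 18.2 CPM in spleen (log2 2.05, SE 0.153, edgeR adjusted p = 0.000228). SESN2, a leucine sensor that also restrains mTORC1, stood at 24.4, 25.7 and 26.5 CPM in brain and 14.5 and 11.2 CPM in spleen (log2 0.99, SE 0.135, edgeR adjusted p = 0.00353). For both the groups were far apart, and both passed whichever library was left out (edgeR adjusted p at most 0.00148 for DDIT4 and 0.0191 for SESN2).

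RACK1, a small subunit scaffold protein whose symbol the rule does not take, stood at 1110.2, 1154 and 1329 CPM in brain and 1038 and 916 CPM in spleen (edgeR adjusted p = 0.161).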

How the data were processed

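RNA of REH cells was sequenced from 3 brain and 2 spleen pools, from poly(A) libraries made with a stranded kit, per the labels' protocols. Tools listed in the submitters' processing notes are kallisto 0.42.4, cutadapt 1.5, bcl2fastq 1.8.4 and DESeq2, with builds GRCh38 and GRCm38; the counting's strand setting is not given in the sources used here. The deposited gene counts are estimated counts as whole numbers. The deposited transcript tables hold kallisto estimated (expected) counts and TPM, per the file headers, over human and mouse transcripts together. The authors' deposited rlog values, on the log2 scale, served only as an alternative, and 1 column that belongs to no sample was not used.

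Counts were tested with edgeR 4.0.16 (R 4.3.3; glmQLFTest after filterByExpr and TMM, site as the only term), with Benjamini-Hochberg adjustment over 20419 genes at a threshold of 0.05. Residual degrees of freedom were 3 and prior ones 5.9 in the main fit, and residual ones were 1 with the replicate block. CPM use TMM-scaled totals. Alternatives used DESeq2 1.42.0 and limma 3.58.1. Transcript usage was tested with edgeR's diffSpliceDGE on rounded estimated counts, its natural-log coefficients turned into log2. Both fits were tested on simulated data; the usage fit fell short of a first criterion for recovered transcripts and missed most changed transcripts that dominate their gene, and the criterion it then met was set after the simulated results were seen. Intervals cover counting error only. Symbols and coordinates are from GENCODE 44.

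The members and lists were chosen with earlier results of these data known. Named are members past the threshold, the 4 most abundant by TPM, the 3 highest and 3 lowest fold changes, a fixed set of paralogue pairs and core genes, and up to 3 genes per companion list; a few of these genes and 1 list are not reported here. The labels say that a replicate number marks an occasion, so same-numbered libraries were taken as pairs, although the deposited spleen columns carry other numbers; deviations of the pairs correlated at -0.03 and 0.15 across genes. Human ribosomal protein genes have 1586 pseudogenes in the table, so reads shared with them are assigned by a model.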

Additional observations from a re-analysis of the deposited data

How the results depend on the processing

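The number of ribosomal protein genes higher in brain, 1, was 0 with DESeq2 size factors, TMM without the ribosomal protein genes, the replicate block, pseudogenes summed or limma on rlog values, 4 with the length trend offset or the DESeq2 Wald test and 9 with no filter on low counts, which also gave 1 lower. With 1 library left out it ranged from 0 to 20, the number lower from 0 to 3, the median log2 fold change from -0.0693 to 0.42 and the difference in share of counts from -0.048 to 1.78 percentage points, the negative values being those without spleen replicate 2. The log2 ratios (brain minus spleen) ranged from 0.37 to 1.06 for RPL22L1 to RPL22, -0.49 to 0.0322 for RPL36AL to RPL36A, -1.23 to -0.48 for RPS27L to RPS27 and -0.64 to 0.0948 for RPL7L1 to RPL7. In the companion lists, 13 genes were higher and 19 lower with no filter, against 4.74% and 3.46% of 38611 genes, those of low counts included. The DESeq2 Wald test called 22 lower, against 7.84% of all genes. These counts took in the like-genes and the list not reported here. The main counts also changed with 1 library left out. Usage of the RPS24 transcript ranged from 1.22 to 1.33. Named genes that changed sign did so at small fold changes that passed no test: RPL36AL 0.00402 and RPSA 0.0391 with the length trend offset; RPL39 -0.00838, RPL41 -0.0254 and RPS19 -0.0670 with the replicate block; RPS19 also -0.0179 with DESeq2 size factors and the DESeq2 Wald test, -0.0175 with TMM without the ribosomal protein genes, -0.0171 with pseudogenes summed, -0.00849 with a 1 CPM filter, -0.0045 with no filter and -0.0023 with upper-quartile scaling. With 1 library left out, log2 fold changes crossed 0 for RPL10 (-0.11 to 0.40), RPL36A (-0.13 to 0.50), RPL36AL (-0.20 to 0.0538), RPL39 (-0.29 to 0.54), RPL3L (-1.06 to 0.32), RPL41 (-0.16 to 0.32), RPL7 (-0.16 to 0.42), RPLP0 (-0.20 to 0.35), RPS19 (-0.28 to 0.35), RPS26 (-0.47 to 0.0538), RPS27 (-0.0880 to 0.64), RPS6 (-0.13 to 0.52), RPSA (-0.31 to 0.30). The cause of these changes was not tested. The replicate block ended the calls of RPL23A and the RPL13A transcript (edgeR adjusted p = 0.0808 and 0.433). This was among the counts of ribosomal protein genes and the calls of RPL23A, RPS27L and the RPS24 and RPL13A transcripts. RPL22L1 and RPL39L passed with the block (edgeR adjusted p = 0.0209 and 0.0445) and not in the main fit. Both also passed with no filter on low counts. Counting error was small for these abundant genes, and the number of libraries, 5, limits the precision.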
